A study of Homo sapiens with 18 samples.

Results

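The 9 genes described here encode surface proteins by which B-cell precursors are staged in the bone marrow and in leukemia diagnostics: *MME* (CD10), *CD34*, *CD38*, *CD9*, *CD24*, *CD22*, *CD72*, *CD27* and *MS4A1* (CD20). They were chosen by symbol from the 26941 genes of the count tables, and all 9 were found. These genes and the gene lists below were chosen with earlier results of these data known. Shares of them that passed a test, set beside the share of all genes, are therefore descriptions. RNA was sequenced from 18 samples of REH, 697 and RCH-ACV, established human lines of B-cell acute lymphoblastic leukemia (B-ALL). In each line 3 samples had received siRNA against *SOX11*, a SoxC transcription factor, and 3 a non-specific control siRNA. Both siRNAs were given at 300 nM by nucleofection and RNA was taken after 48 h, so the control samples also carry the effects of transfection. The sample titles call the siRNA groups knockouts, but the cells were transfected with siRNA and *SOX11* RNA remained. Each line grew from the leukemia of 1 person, so a difference between lines cannot be told apart from one between the leukemias they came from.

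During B-cell development the surface of the cell changes in order. Early progenitors carry CD34. CD10 and CD38 mark the precursor stages in the marrow, along with high CD24 and CD9, CD22 is gained early and kept, and CD20 rises later, as CD10 is lost. CD27 marks memory B cells in the periphery. Leukemic blasts stop at a precursor stage, and CD10, CD34, CD38 and CD20 are among the antigens read by flow cytometry at diagnosis.

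Of the 9 proteins, CD10 and CD38 are enzymes that face the outside of the cell. CD10, also called neprilysin, is a zinc endopeptidase that cuts short peptides. *MME* lies on chromosome 3 of hg19 (chr3:154741913-154901493, plus strand). Its exon 18 (chr3:154884691-154884810, coding) is printed because it holds the bases that code for the zinc-binding signature of the enzyme, which are in capitals.
MME exon 18: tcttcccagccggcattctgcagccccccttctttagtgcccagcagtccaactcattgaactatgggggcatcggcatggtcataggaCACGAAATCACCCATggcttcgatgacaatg

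The 250 bases before a transcription start are printed for *MME*, *CD72* and *CD38*. *MME* and *CD72* were higher after *SOX11* siRNA in a fit of 1 effect common to the 3 lines. In 697 alone *CD72* had a log2 fold change of -0.17. The response of *CD38* differed between lines. Each CG dinucleotide is in capitals. The sequences are RefSeq promoters (GRCh38.p14), and the hg19 positions come from an exact match to that genome. RefSeq gives 4 windows close together for *MME*, and the most upstream is shown. The *CD72* promoter lies on the minus strand and the other 2 on the plus strand.
MME promoter, chr3:154797211-154797460: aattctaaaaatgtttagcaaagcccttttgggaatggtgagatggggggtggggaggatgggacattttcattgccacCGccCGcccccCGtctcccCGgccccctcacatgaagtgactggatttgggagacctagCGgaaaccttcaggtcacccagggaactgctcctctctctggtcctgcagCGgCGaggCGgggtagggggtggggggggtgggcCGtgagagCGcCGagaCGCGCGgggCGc
CD72 promoter, chr9:35618411-35618660: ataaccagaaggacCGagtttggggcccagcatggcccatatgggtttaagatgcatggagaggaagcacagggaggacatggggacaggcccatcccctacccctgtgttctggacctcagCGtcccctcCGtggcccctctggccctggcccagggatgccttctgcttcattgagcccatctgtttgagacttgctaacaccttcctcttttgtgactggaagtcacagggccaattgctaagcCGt
CD38 promoter, chr4:15779701-15779950: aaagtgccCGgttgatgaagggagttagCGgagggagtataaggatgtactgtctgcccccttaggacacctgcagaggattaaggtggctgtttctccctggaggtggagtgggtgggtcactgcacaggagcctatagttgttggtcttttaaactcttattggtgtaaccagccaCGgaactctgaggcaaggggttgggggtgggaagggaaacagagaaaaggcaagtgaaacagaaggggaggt

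The *MME* stretch holds 15 CG dinucleotides, the *CD72* stretch 4 and the *CD38* stretch 3. Over all 35116 RefSeq promoters the median was 11, with quartiles of 3 and 23. The 300-base windows of the members were searched on both strands for AACAATG and AACAAAG, words recognized by SOX proteins. Windows were found for 8 of the 9 members, 16 in all. Only 1 of the 16 windows held either word, an AACAAAG in 1 of the 3 *CD24* windows, while 3.33% of all promoters hold AACAATG and 5.20% hold AACAAAG. The match is a description of letters and was not tested as a binding site. The other members lie on chromosome 1 (*CD34*, chr1:208054317-208084747, minus strand), chromosome 4 (*CD38*, chr4:15779898-15854855), chromosome 9 (*CD72*, chr9:35609979-35646807, minus strand) and chromosome 11 (*MS4A1*, chr11:60223319-60238225). *CD9* (chr12:6308881-6347437) and *CD27* (chr12:6554121-6560884) share chromosome 12, and *CD22* lies on chromosome 19 (chr19:35810164-35838264). *CD24* is not placed in the hg19 annotation used here.

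The total count per sample on the 26941 genes lay between 7039594 and 16592492, with a median of 8759235. At these depths 3 counts, taken as the least that shows a gene, correspond to 0.181 to 0.426 CPM by the library totals. CPM values below are counts scaled to library size with TMM factors over the 18 samples. Floors of this kind cover counting error only. *SOX11* fell in every line, by log2 fold changes of -0.83 (REH), -0.91 (697) and -0.67 (RCH-ACV), with edgeR adjusted p-values of 1.41e-08, 0.000233 and 2.51e-06, and no *SOX11* siRNA sample overlapped the controls of its line. Markers of B-cell precursors summed to between 4373 and 6463 CPM in every sample, and at least 9 of the 10 reached 1 CPM in each group. Markers of T cells summed to at most 0.580 CPM and *VCAM1*, of stromal cells, was at 0 counts throughout. Myeloid markers summed to at most 31.2 CPM, natural killer cell markers to at most 15.6 CPM, and erythroid and megakaryocytic markers to at most 3.15 CPM. Stromal markers reached 206 CPM through *PDGFRB*, and plasma cell markers 1067 CPM through *JCHAIN* in 697.

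*MME* had the widest range between the lines of the 8 members that could be tested. In REH control samples its level was 1155, 1131 and 1111 CPM. In 697 it was 46.7, 36.7 and 41.3 CPM, and in RCH-ACV 9.56, 9.87 and 11.3 CPM. The 3 lines did not overlap, and the lowest REH sample lay far above the highest of the other lines. With control siRNA the *MME* level was thus 26.9-fold lower in 697 than in REH and 109-fold lower in RCH-ACV than in REH. In bulk RNA fewer cells with the transcript and less RNA per cell cannot be told apart.

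*CD34*, which encodes a sialomucin of stem and progenitor cells, was at or near the detection limit. It had 0 counts in all 6 samples of 697. In REH control samples it had 0, 0 and 2 counts and in *SOX11* siRNA samples 1, 0 and 1. RCH-ACV gave 5, 4 and 4 counts with control siRNA and 2, 3 and 0 with *SOX11* siRNA. It did not pass edgeR's filter on low counts in any comparison, so it has no test, and 8 of the 9 members were tested everywhere. The 0 counts of 697 allow a level of up to 0.426 CPM in the shallowest of its libraries.

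*CD38*, an enzyme that consumes NAD and makes cyclic ADP-ribose, stood at 247, 245 and 225 CPM in REH controls. In 697 controls it stood at 149, 148 and 132 CPM, and in RCH-ACV controls at 155, 159 and 153 CPM. All REH values lay above those of the other lines. *CD24*, which encodes a small mucin-like protein held by a lipid anchor, had 906, 886 and 921 CPM in REH and 927, 943 and 939 CPM in RCH-ACV controls. Its 697 controls were lower, at 367, 329 and 345 CPM. *CD24* has near-identical copies elsewhere in the genome and reads at more than 2 places were discarded by the authors, so its level is uncertain.

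*CD9*, which encodes a tetraspanin that organizes other membrane proteins, followed the reverse order of *MME*. REH controls had 47.2, 41.8 and 38.6 CPM, 697 controls 216, 194 and 182 CPM, and RCH-ACV controls 335, 334 and 359 CPM. No line overlapped another. *MS4A1*, the gene of CD20 and the target of rituximab, was highest in REH, at 28.7, 31.6 and 30.8 CPM. RCH-ACV controls had 8.99, 10.4 and 9.77 CPM and 697 controls only 0.614, 2.06 and 0.945 CPM, from 5, 14 and 7 counts.

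*CD22* and *CD72* encode receptors that restrain the B-cell receptor. *CD22*, a lectin that binds sialic acid, had 231, 230.1 and 230.4 CPM in REH controls, 252, 277 and 260.1 CPM in 697 controls and 218, 225 and 219 CPM in RCH-ACV controls. *CD72*, whose protein binds the semaphorin SEMA4D, had 26.9, 27.7 and 28.5 CPM in REH controls. It was lower in 697 (9.95, 11.7 and 11.1 CPM) and higher in RCH-ACV (33.7, 34.9 and 36.8 CPM). *CD27*, a receptor of the TNF family that binds CD70, was low everywhere. REH controls had 20, 22 and 15 counts, 697 controls 6, 12 and 13, and RCH-ACV controls 11, 11 and 9.

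**Figure D1:**
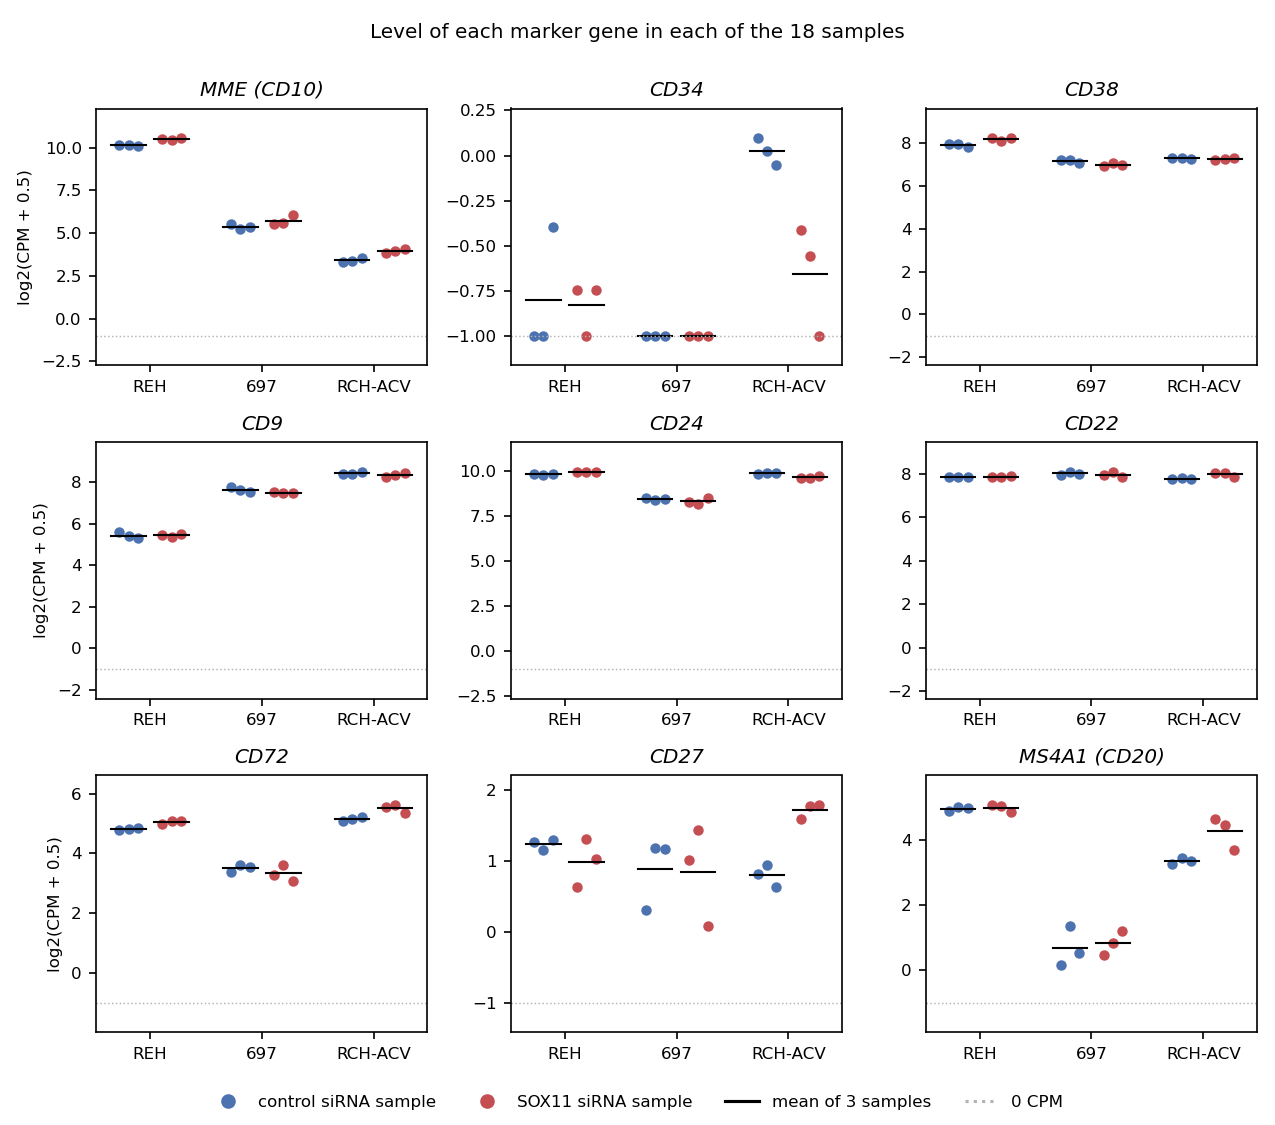
Level of each of the 9 genes in the 18 samples, as log2(CPM + 0.5) on the vertical axis, by cell line on the horizontal axis; blue points are control siRNA samples, red points *SOX11* siRNA samples, black bars the mean of 3 samples and the dotted line 0 CPM. Each panel has its own vertical range. *MME* falls from REH to 697 to RCH-ACV, *CD9* rises in that order, and *CD34* stays near 0 CPM in every line.

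The question of how the lines differ before *SOX11* is reduced was asked in the 9 control samples. Between 697 and REH, 7 of the 8 tested members passed an adjusted p of 0.05, against a background of 76.3% of all 13686 genes tested. The figures were 5 of 8 against 73.9% for RCH-ACV and REH, and 6 of 8 against 64.2% for RCH-ACV and 697. The share of members called was therefore near that of all genes. The log2 difference of *MME* was -4.75 between 697 and REH (standard error 0.06), -6.77 between RCH-ACV and REH (standard error 0.07) and -2.02 between RCH-ACV and 697 (standard error 0.10). The adjusted p-values were 6.98e-21, 6.15e-22 and 4.93e-12 (quasi-likelihood F-test of edgeR, Benjamini-Hochberg adjusted over all genes tested, as for every adjusted p here).

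*CD9* differed by 2.22 between 697 and REH (standard error 0.07, adjusted p = 5.14e-15 from edgeR) and by a further 0.80 between RCH-ACV and 697 (standard error 0.06, adjusted p = 2.09e-09). *MS4A1* had a log2 difference of -4.68 between 697 and REH (95% interval -5.08 to -4.27) and of 3.05 between RCH-ACV and 697 (95% interval 2.51 to 3.59). *CD72* and *CD24* were lowest in 697 as well. *CD72* was lower there than in REH by a log2 difference of -1.33 and *CD24* by -1.37, and RCH-ACV exceeded 697 by 1.69 and 1.44. *CD38* was highest in REH, with -0.73 for 697 and -0.61 for RCH-ACV. 697 and RCH-ACV did not pass the test for *CD38* (log2 difference 0.12, 95% interval 0.00 to 0.24, adjusted p = 0.0652). Over the 20 alternatives tried, this adjusted p ran from 0.000213 to 0.306. The lowest value came from the 9 *SOX11* siRNA samples, not from the controls.

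For some neighbours in the order no difference could be shown. *CD24* differed between RCH-ACV and REH controls by 0.06 (95% interval -0.02 to 0.14, adjusted p = 0.149 from edgeR) and *CD22* by -0.05 (95% interval -0.14 to 0.04, adjusted p = 0.308). *CD22* passed in the other 2 pairs with small differences, 0.20 for 697 against REH and -0.25 for RCH-ACV against 697. The first of these was lost when samples were scaled by library size alone (0.066, adjusted p = 0.188) and in the *SOX11* siRNA samples (0.10, adjusted p = 0.115), and its adjusted p ran from 1.32e-05 to 0.188 over the alternatives. *CD27* passed in none of the pairs, with differences between -0.55 and -0.16 and wide intervals. The 9 samples that had received *SOX11* siRNA gave the same direction between lines for *MME*, *CD38*, *CD9*, *CD72* and *MS4A1* in every pair. For *CD24*, *CD22* and *CD27* they did not. *CD24* was then lower in RCH-ACV than in REH (log2 difference -0.31, adjusted p = 5.26e-05), and *CD27* was higher in RCH-ACV than in REH (0.94, adjusted p = 0.00924) and than in 697 (1.00, adjusted p = 0.00976). No alternative was run on these comparisons of *SOX11* siRNA samples. They were themselves 1 of the 20 alternatives to the control comparisons, and gave the lowest adjusted p in each of the following ranges. For *CD24* between RCH-ACV and REH the range was 5.26e-05 to 0.798. For *CD27* it was 0.00924 to 0.343 between RCH-ACV and REH, and 0.00976 to 0.977 between RCH-ACV and 697.

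**Figure D2:**
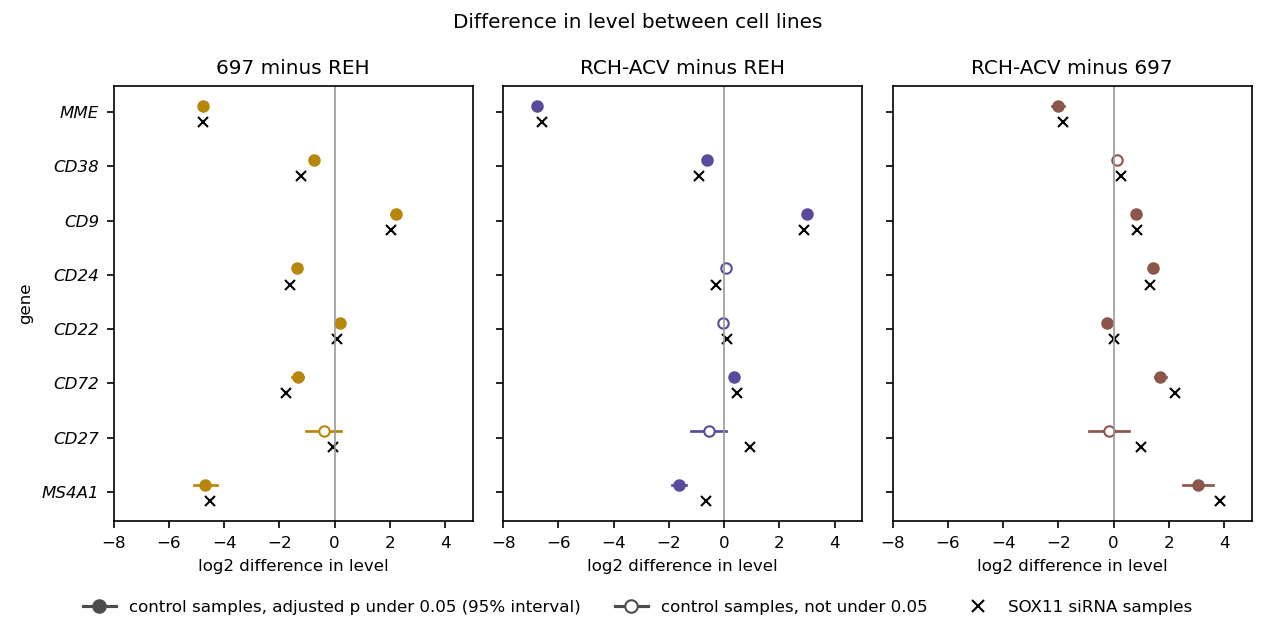
Log2 difference in level between cell lines for the 8 tested genes; circles with 95% intervals are the 9 control siRNA samples, filled where the adjusted p is under 0.05 and open where it is not, and crosses are the 9 *SOX11* siRNA samples. *MME* lies farthest to the left in both comparisons with REH (-4.75 and -6.77 in the controls), while *CD9* lies to the right in all 3 panels.

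Levels of different genes can be compared only per length, and CPM was divided by the length in kilobases of the MANE Select transcript, which the count tables do not hold and which serves as an approximation. No such length was had for *CD24*, so the orders below leave it out. Its control means were 904 CPM in REH, 347 CPM in 697 and 936 CPM in RCH-ACV, and its place in these orders is not known. In REH controls *MME* led with 200.2 CPM per kilobase, before *CD22* with 70.4, *CD38* with 42.5 and *CD9* with 34.7 (means of 3). In 697 *CD9* led with 161 CPM per kilobase, before *CD22* with 80.3 and *CD38* with 25.5, and *MME* followed with 7.35, next to *CD72* with 7.13. The SDs of these last 2 levels, 0.881 and 0.594 CPM per kilobase, exceed the gap between them. In RCH-ACV the order was *CD9* with 279.8, *CD22* with 67.4, *CD38* with 27.7, *CD72* with 22.9, *MS4A1* with 2.73 and *MME* with 1.81 CPM per kilobase. *MME* thus stood at rank 1 of the 8 genes in REH, rank 4 in 697 and rank 6 in RCH-ACV.

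*SOX11* siRNA raised *MME* in REH. The 3 samples had 1434, 1391 and 1504 CPM, all above the controls, which did not exceed 1155 CPM. This was a rise of 27.9%, or 0.36 on the log2 scale with a standard error of 0.03 (adjusted p = 5.30e-08, edgeR). *CD38* rose too, to 299.9, 275 and 299 CPM, again above every control (log2 fold change 0.29, standard error 0.04, adjusted p = 8.01e-05 from edgeR). *CD24* rose by less, to 996, 981 and 986 CPM (log2 fold change 0.13, standard error 0.03, adjusted p = 0.00676 from edgeR), and it did not pass in 1 fit over the 18 samples (adjusted p = 0.281; range over its alternatives 0.00241 to 0.281).

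These 3 of the 8 tested members, all higher, stood against 4.65% of all 12787 genes tested in REH, 2.64% higher and 2.02% lower. The median log2 fold change was 0.08 over the 8 members and 0.00 over all genes. *CD72* had 31.0, 33.2 and 33.7 CPM, above its controls, with a log2 fold change of 0.24 that missed the threshold (95% interval 0.09 to 0.39, adjusted p = 0.0582 from edgeR). The other 4 members gave log2 fold changes of 0.03 for *CD22*, 0.01 for *CD9*, 0.03 for *MS4A1* and -0.31 for *CD27*, with adjusted p-values of at least 0.653. In REH, B-precursor markers summed to 6420 to 6463 CPM with *SOX11* siRNA and 6063 to 6239 CPM with control siRNA, and of the 9 tested *RAG1* (0.20) and *CD79A* (0.13) rose and *EBF1* fell (-0.13). Among markers of other cells, *MPO* fell from a mean of 13.5 to 7.90 CPM (log2 fold change -0.78, adjusted p = 0.000237) and *COL1A1* fell (-0.81, adjusted p = 0.0472). The part of these markers in the results for REH was not tested.

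RCH-ACV had the most members past the threshold, 6 of 8, with 5 higher and 1 lower. The background was 7.64% of the 12963 genes tested in this line, split into 3.68% higher and 3.97% lower. *MME* had 13.8, 14.8 and 16.6 CPM, above the controls, and rose by 0.56 on the log2 scale with a standard error of 0.12 (adjusted p = 0.00728, edgeR). Its level stayed below that of every 697 and REH sample. *CD72* reached 46.8, 48.4 and 40.7 CPM (log2 fold change 0.38, standard error 0.08, adjusted p = 0.00706 from edgeR), and *CD22* 263, 262 and 237 CPM (0.20, standard error 0.05, adjusted p = 0.0149).

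The largest fold changes of members in RCH-ACV were those of *CD27* and *MS4A1*. In the controls *CD27* had only 9 to 11 counts, while *MS4A1* had 79 to 84, near the 76 to 97 of *MME*. *MS4A1* had 24.4, 21.3 and 12.3 CPM against at most 10.4 CPM in the controls (log2 fold change 1.01, standard error 0.19, adjusted p = 0.00339 from edgeR). The third of these samples stood apart from the other 2 and close to the controls. *CD27* had 20, 49 and 27 counts, or 2.52, 2.93 and 2.94 CPM, against 1.05 to 1.43 CPM in controls (1.19, standard error 0.26, adjusted p = 0.00828). *CD27-AS1*, which overlaps *CD27* on the other strand, had 11.5, 10.6 and 9.16 CPM against 6.28 to 8.20 CPM. The strand setting used for counting is not given in the sources used here, so reads of *CD27* and *CD27-AS1* may not be separate.

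*CD24* was the member that fell in RCH-ACV, to 765, 782 and 844 CPM, below every control (log2 fold change -0.23, standard error 0.04, adjusted p = 0.00123 from edgeR). *CD38* gave -0.02 (148, 153 and 159 CPM, overlapping the controls, 95% interval -0.11 to 0.08) and *CD9* -0.09 (297, 325 and 344 CPM, 95% interval -0.19 to 0.02). The median over the 8 members was 0.29, against 0.01 over all genes. B-precursor markers summed to 4373 to 5449 CPM after *SOX11* siRNA, against 5358 to 5580 CPM in controls, and of the 10 *CD79A* rose (0.46) and *DNTT* fell (-0.37). Plasma cell markers summed to 67.3 to 89.5 CPM against 53.8 to 59.6 CPM, and 1 of the 3 tested rose, *JCHAIN*, from a mean of 7.18 to 32.1 CPM (2.18, adjusted p = 6.13e-07). *SDC1* averaged 47.5 CPM in controls and 46.8 CPM after *SOX11* siRNA, and the part of these markers in the results for RCH-ACV was not tested.

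Single RCH-ACV libraries decided several of these calls. Without the first control sample 2 members passed, *CD22*, *CD72* and *CD27* did not, and *MME* missed the threshold (log2 fold change 0.51, adjusted p = 0.0605; range over its alternatives 0.00411 to 0.0605). Without the second *SOX11* siRNA sample, the deepest of all 18 libraries, 3 members passed and *CD72*, *CD22* and *CD27* did not. *CD22* and *CD27* were also lost without the third control sample, and *CD22* without the first *SOX11* siRNA sample. Without the third *SOX11* siRNA sample 7 members passed, *CD9* as well. *MS4A1* and *CD24* passed in all 16 alternatives, and no member that passed changed its direction in any of them.

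In 697 none of the 8 tested members passed, by edgeR or by DESeq2. This was the line with the fewest calls, 0.559% of 12169 genes, 0.0822% higher and 0.477% lower. *CD38* (121, 135 and 125 CPM), *CD9* (182, 177 and 175 CPM) and *MME* had unadjusted p-values of 0.0215, 0.0324 and 0.0281, the 3 members under 0.05. *MME* had 45.9, 47.1 and 66.0 CPM, and the first of these lay below the highest control. Its log2 fold change was 0.35 (95% interval 0.05 to 0.65, adjusted p = 0.502 from edgeR), and 0.16 without the third *SOX11* siRNA sample. *CD38* gave -0.18 (95% interval -0.32 to -0.03, adjusted p = 0.470 from edgeR) and *CD9* -0.15 (95% interval -0.28 to -0.02, adjusted p = 0.532). Only *CD9* had all 3 samples below all 3 controls, and barely so. Its highest *SOX11* siRNA sample had 181.62 CPM and its lowest control 181.66 CPM.

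The other members of 697 overlapped between the groups. *CD24* had 315, 291 and 357 CPM (log2 fold change -0.11), *CD22* 250.4, 273 and 231 CPM (-0.07) and *CD72* 9.28, 11.8 and 7.96 CPM (-0.17). *MS4A1* had 7, 11 and 16 counts and *CD27* 12, 19 and 5 counts, too few to give a direction (0.20 with a standard error of 0.46 and 0.03 with a standard error of 0.49). The median over the 8 members was -0.09, against 0.00 over all genes. B-precursor markers summed to 4452 to 4668 CPM with *SOX11* siRNA and 5236 to 5565 CPM with control siRNA in this line, and 4 of the 10 fell, *VPREB3* (-0.64, adjusted p = 0.00241), *RAG1* (-0.41), *EBF1* (-0.34) and *DNTT* (-0.27). Their part in the results for 697 was not tested.

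Whether *SOX11* siRNA acted on these genes alike in the 3 lines was asked in separate fits over the 18 samples, without and with interaction terms. As an effect common to the lines, 2 of the 8 members passed, both higher, against 9.02% of all 14026 genes tested (3.74% higher and 5.28% lower). *MME* rose by 0.37 (standard error 0.05, 95% interval 0.26 to 0.48, adjusted p = 1.98e-05 from edgeR) and *CD72* by 0.24 (standard error 0.06, 95% interval 0.11 to 0.37, adjusted p = 0.0148). *CD72* passed in 4 of the 5 alternatives tried, with adjusted p-values from 0.00913 to 0.0502. The same samples entered the fits of the single lines, so these values are not independent of those. *MS4A1* gave 0.36 (adjusted p = 0.0844), *CD27* 0.36 (0.370), *CD9* -0.09 (0.168), *CD24* -0.07 (0.352), *CD22* 0.05 (0.424) and *CD38* 0.05 (0.631).

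The difference between lines passed for 2 of the 8 members, against 0.727% of all genes tested. *CD38* rose in REH and gave negative values in 697 and RCH-ACV (interaction term, adjusted p = 0.00467 from edgeR). *CD24* rose in REH and fell in RCH-ACV, while its value in 697 was -0.11 (interaction term, adjusted p = 0.0280 from edgeR). Over the alternatives, none of which left out a sample, the edgeR interaction of *CD24* had adjusted p-values from 0.00936 to 0.0553, and 1 of them ended the call. For *MS4A1*, which passed only in RCH-ACV, the difference between lines missed the threshold (adjusted p = 0.0684). For *MME* the adjusted p was 0.885, for *CD72* 0.295, for *CD22* 0.201, for *CD27* 0.253 and for *CD9* 0.837, values that do not show that the lines responded alike.

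**Figure D3:**
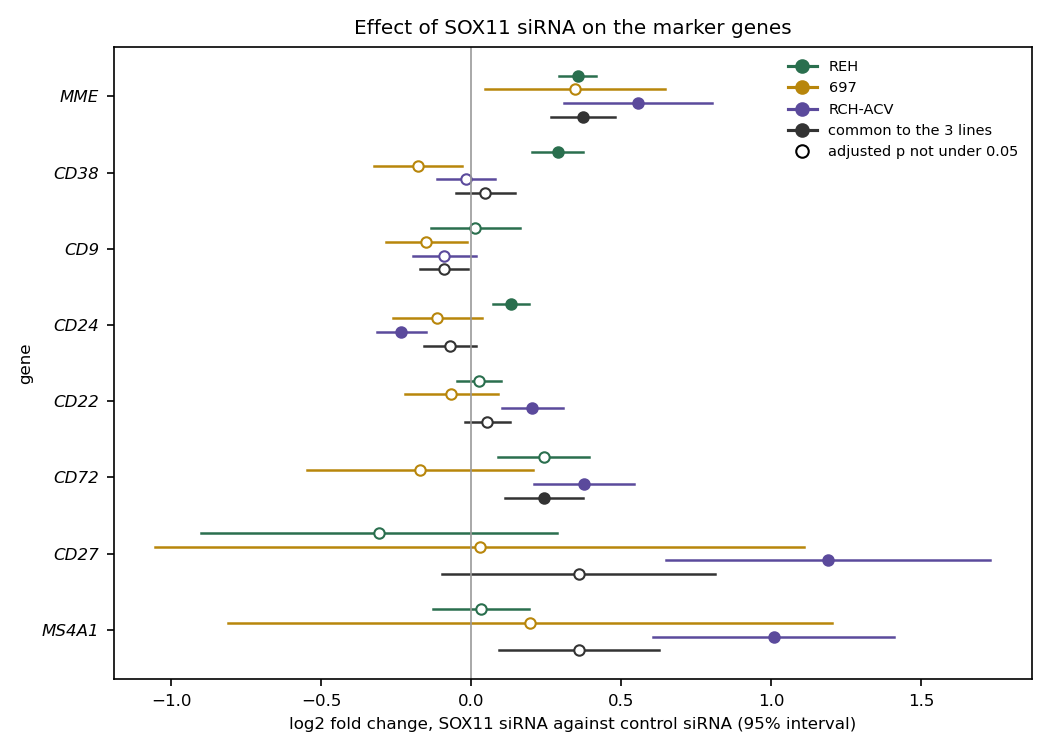
Log2 fold change after *SOX11* siRNA, with 95% intervals, for the 8 tested genes in REH, 697 and RCH-ACV and for the effect common to the 3 lines (black); open circles have an adjusted p that is not under 0.05. The 4 values of *MME* lie to the right of 0, between 0.35 and 0.56, while *CD24* lies to the right in REH (0.13) and to the left in RCH-ACV (-0.23).

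Proteins that work with these receptors were followed as a list of 20 genes. In REH 6 of the 17 tested passed, of which 5 rose and 1 fell. RCH-ACV gave 3 of 19, all higher, and 697 none of 18. Of all genes tested 4.65% passed in REH, 7.64% in RCH-ACV and 0.559% in 697, the background for this list and for those that follow. The list's median log2 fold change was 0.09 in REH, 0.07 in RCH-ACV and -0.02 in 697. *PTPN6*, the phosphatase SHP-1 that CD22 and CD72 recruit, rose by 0.30 in REH (adjusted p = 0.0336, edgeR) and by 0.46 in RCH-ACV (adjusted p = 0.000317). *CD81*, which encodes a tetraspanin, rose in RCH-ACV by 0.34 (adjusted p = 0.00151). *PECAM1*, which encodes the CD38 ligand CD31, rose in RCH-ACV by 0.88 (standard error 0.15, adjusted p = 0.00195). In REH the largest changes were in *CD82*, another tetraspanin (0.82, adjusted p = 0.00869), and *INPP5D*, the lipid phosphatase SHIP-1 (0.32, adjusted p = 4.82e-06). *SEMA4D*, which encodes the CD72 ligand (0.29), and *CD81* (0.19) also rose there, and *ST6GAL1*, which encodes a sialyltransferase that makes CD22 ligands, fell (-0.22). These 3 were named after their values were seen.

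**Figure D4:**
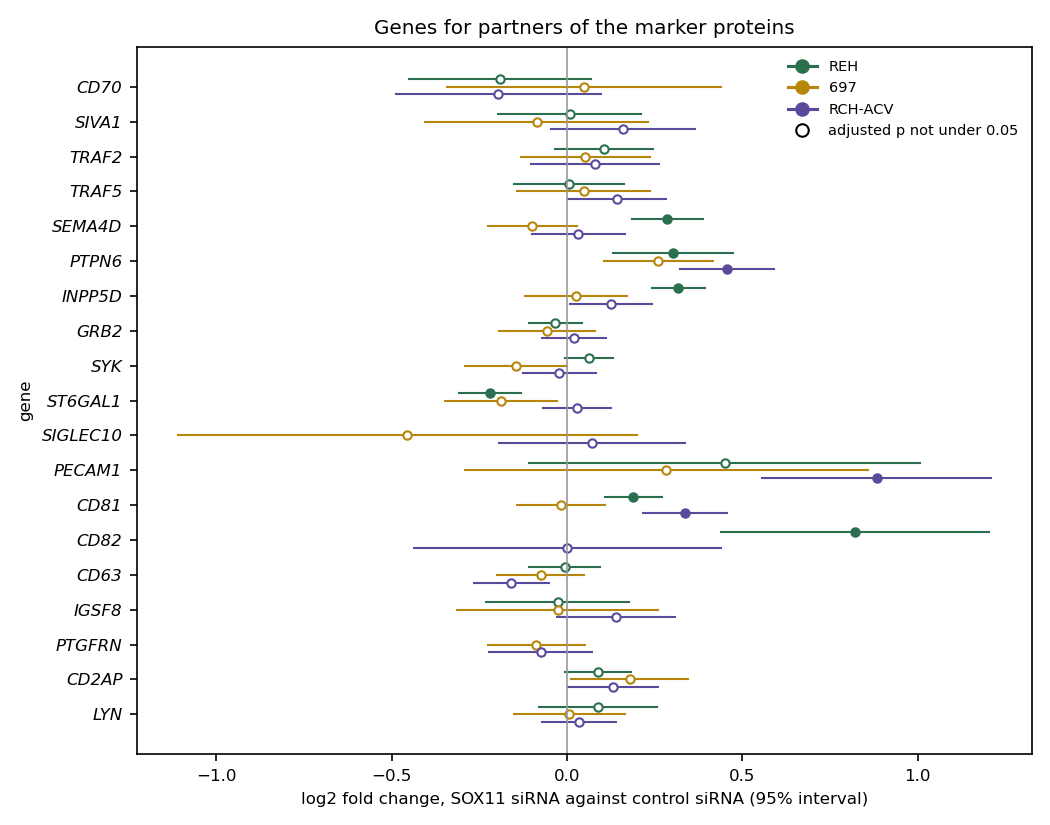
Log2 fold change after *SOX11* siRNA, with 95% intervals, of the 19 tested genes for partners of the marker proteins, by cell line; open circles have an adjusted p that is not under 0.05 and a missing point was not tested in that line. *PTPN6* lies to the right of 0 in all 3 lines and is filled in REH (0.30) and RCH-ACV (0.46), and no gene is filled in 697.

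Other surface genes of the B lineage, a list of 44, gave 5 of 28 tested genes higher and none lower in REH, 3 higher and 2 lower of 24 in RCH-ACV, and 1 lower of 19 in 697. Their medians were 0.04, 0.09 and -0.04. In REH *CD84*, a SLAM family receptor (0.75, adjusted p = 0.00505 from edgeR), and *CD52* (0.14, adjusted p = 0.0268) rose. In RCH-ACV *KIT*, the stem cell factor receptor, fell (-1.21, adjusted p = 0.0235), and *CD79A*, a signalling chain of the B-cell receptor (0.46, adjusted p = 0.000255), and *CD48* (0.40, adjusted p = 0.000824) rose. *IL7R*, the receptor chain for interleukin-7, was the gene that fell in 697 (-0.22, adjusted p = 0.0492). Other genes past the threshold, named after their values were seen, were *SPN* (0.14) and *CD79A* (0.13) in REH and *SPN* (0.24) and *IL7R* (-0.17) in RCH-ACV.

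Surface genes often read as leukemia-associated antigens, a list of 17, gave 1 of 8 tested in REH, *ITGA4* (0.23, adjusted p = 0.000137 from edgeR), and none of 9 in 697. In RCH-ACV 3 of 10 passed, all higher: *ADGRE5* (0.29, adjusted p = 0.0349), *ENG* (0.22, adjusted p = 0.0236) and *CD44*, the hyaluronan receptor (0.16, adjusted p = 0.0226). The medians were -0.01, 0.00 and 0.08. Of 10 other surface enzymes, set beside CD10 and CD38, none of the 5 tested in REH, 3 in 697 and 5 in RCH-ACV passed, with medians of 0.00, -0.08 and -0.06. In the fit of 1 effect common to the 3 lines, 1 of 6 passed, against 9.02% of all genes tested in that fit. This was *NT5E*, the ectonucleotidase CD73, which fell (-0.24, adjusted p = 0.00400). In the same fit 9 of 29 B-lineage surface genes and 6 of 19 partner genes passed. Of the leukemia-associated genes 1 of 12 passed, again *NT5E*.

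The genes whose pattern over the 18 samples was most like that of *MME* were found among the 13344 genes that averaged 1 CPM or more, by the root mean square difference of log2(CPM + 0.5) after each gene was centred on its own mean. They were *ERI2* (0.36), *EVPL* (0.47), *BEST3* (0.53), *KIF26B* (0.55) and *REXO5* (0.57). Each was far higher in REH than in the other lines, as *ERI2* with 68.5 CPM in REH controls, 3.23 in 697 and 0.158 in RCH-ACV. *CD9* was nearest to *LRP12* (0.15), *CD38* to *MLXIP* (0.08), *CD24* to *ADD1* (0.10) and *CD22* to *UBAP2* (0.06). *CD72* was nearest to *BTBD6* (0.15), *MS4A1* to *IL17RC* (0.39) and *CD27* to *SCNN1D* (0.27). These distances are descriptions over samples that share 3 cell lines and carry no test, and for *CD34*, with few counts, none is given.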

How the data were processed

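RNA of 18 samples (3 cell lines, 2 siRNAs, 3 biological replicates each) was sequenced from stranded mRNA libraries. The submitters' processing notes name bcl2fastq, FastQC 0.10.1, STAR 2.5.3a, HOMER and hg19. The authors trimmed reads, discarded those at more than 2 locations and deposited raw counts per RefSeq transcript, without normalization, in 1 table per line. No column of another sample was present (0). Transcripts of a gene share reads, so each gene is represented by its transcript of highest summed count. Symbols were matched for 98.0% of transcripts (99.0% of counts). The kept transcript was NM_007289 for *MME*, NM_001773 for *CD34*, NM_001775 for *CD38*, NM_001769 for *CD9*, NM_013230 for *CD24*, NM_001771 for *CD22*, NM_001782 for *CD72*, NM_001242 for *CD27* and NM_152866 for *MS4A1*.

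Separate fits per line used edgeR 4.0.16 under R 4.3.3 (TMM, filterByExpr, quasi-likelihood F-test, two-sided, Benjamini-Hochberg adjusted p under 0.05 over all genes tested). Control levels were compared in 1 fit of the 9 control samples. The common effect and the interaction were tested in separate fits of the 18, without and with interaction terms. Standard errors were taken from the log2 fold change and F. The members and the gene lists were chosen with earlier results of these data known. All members were named, and from each list at most the 3 largest changes past the threshold per line, apart from an item that is not reported here.

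No replicate pair looked like 1 library deposited in duplicate (chi-square per degree of freedom 1.28 to 4.97). Positions and lengths are from GENCODE release 44 lifted to hg19, which does not place *CD24*. On simulated data with 200 genes changed by 1 log2 unit, the REH fit recovered 100% of them, the 697 fit 99% and the RCH-ACV fit 100%. False calls made up 6.54%, 8.33% and 5.66%. The changed genes were drawn only from genes with higher counts, and their change was larger than that of *MME* in any line. These shares therefore do not show how often smaller changes, or changes at low counts, would be found. Alternatives tried were DESeq2 1.42.0, legacy quasi-likelihood, RLE size factors, scaling by library size alone, no filter, a CPM filter (above 1 in 3 or more samples), the highest transcript within the samples fitted, an adjusted p under 0.01, a replicate block, 1 fit over 18 samples, and leaving out each sample. Control levels were also compared in the *SOX11* siRNA samples. For the common effect and the interaction only RLE size factors, library size alone, no filter, the CPM filter and the replicate block were tried. The influence of single samples on these was not tested. Tables and plots used Python 3.11.15, numpy 2.4.6, pandas 2.3.3 and matplotlib 3.10.9.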

Additional observations from a re-analysis of the deposited data

Results flagged for a closer look

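The effect of *SOX11* siRNA differed between the cell lines for *CD38* (edgeR, test of the interaction, adjusted p = 0.00467). The log2 fold change was 0.29 for REH, -0.18 for 697 and -0.02 for RCH-ACV. All 3 REH samples with *SOX11* siRNA lay above their controls. For *CD24* the effect differed as well (edgeR, test of the interaction, adjusted p = 0.0280), with values of 0.13 for REH, -0.11 for 697 and -0.23 for RCH-ACV. Its adjusted p ran from 0.00936 to 0.0553 over the alternatives, so this call did not hold in all of them. All 3 REH samples lay above and all 3 RCH-ACV samples below their controls. The level of *CD24* is uncertain because near-identical copies may share its reads, which was not tested.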

How the results depend on the processing

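Over the alternatives, 201 counts of called genes or members stayed within 1.5 times the value reported and 25 did not. In REH, where 595 genes passed, DESeq2 gave 316, an adjusted p under 0.01 275 and 1 fit over 18 samples 242, and leaving out single samples gave 299 to 521. In 697, where 68 passed, these were 27 at 0.01, 193 in 1 fit over 18 samples, 29 with the replicate block and 25 to 71 without single samples. In RCH-ACV, where 991 passed, DESeq2 gave 566 and 0.01 gave 407, and single samples left out gave 386 to 2518 genes and 2 to 7 members. The 2518 genes came without the third *SOX11* siRNA sample. Its chi-square per degree of freedom was 3.325 with the first and 4.286 with the second such sample, against 1.319 between those. With the replicate block 1 member differed between lines, *CD38* (adjusted p = 0.0417), while *CD24* missed the threshold (adjusted p = 0.0553), and 1 passed as a common effect, *MME*, while *CD72* missed the threshold (0.23, adjusted p = 0.0502). The block turned *CD27* in 697 to -0.0052 and moved *CD38* between RCH-ACV and 697 past the threshold (adjusted p = 0.0366), and it changed no other call. Replicate numbers did not pair the samples: deviations of same-numbered samples correlated between -0.198 and 0.209, and 2 of 9 samples correlated best with their own number. The cause of these changes was not tested.

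In 697 against REH *CD22* was lost with library size alone and in the *SOX11* siRNA samples. Signs that reversed belonged to members that had not passed, except for *CD22* between RCH-ACV and 697. In the *SOX11* siRNA samples RCH-ACV minus REH gave -0.31 for *CD24*, 0.12 for *CD22* and 0.94 for *CD27*, and RCH-ACV minus 697 gave 0.016 for *CD22* and 1.00 for *CD27*. Library size alone gave -0.0097 for *CD24* between RCH-ACV and REH. Leaving out single samples gave ranges of -0.020 to 0.11 for *MS4A1* and -0.037 to 0.093 for *CD9* in REH, -0.44 to 0.44 for *CD27* and -0.15 to 0.79 for *MS4A1* in 697, -0.038 to 0.0041 for *CD38* in RCH-ACV, and -0.50 to 0.041 for *CD27* between RCH-ACV and 697. DESeq2 gave no adjusted p for *CD27* in REH and RCH-ACV. *CD34* could not be tested at these depths, and *CD27* and, in 697, *MS4A1* had too few counts for changes of the size seen in *MME*.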
